A study of Homo sapiens with 6 samples.

Results

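MCU, MPC1 and CHCHD10 encode proteins of the mitochondrial inner membrane or the space beside it, and were followed by name in a table of 1877 genes from LP-1 cells, an established human multiple myeloma line. All 3 were found, 1 row each. The RNF5_KD group (n = 3 libraries) came from LP-1 cells in which a short hairpin RNA had depleted RNF5, a ubiquitin ligase of the endoplasmic reticulum membrane. The Ctrl group (n = 3) was LP-1 given a non-target control. Both groups grew in RPMI-1640 with 15% serum and carried no drug treatment in the labels. The study's title concerns how mitochondria, RNF5 and the co-chaperone DNAJA1 bear on the response to selinexor, an inhibitor of nuclear export. The sources used here do not give how many hairpins were used or whether each library had a culture of its own, so every spread below is between libraries and may be technical.

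The mitochondrial calcium uniporter complex lets calcium cross the inner membrane into the matrix. MCU forms its pore. Pyruvate from glycolysis enters the matrix through the mitochondrial pyruvate carrier, of which MPC1 is a subunit that pairs with MPC2. CHCHD10 is a small protein of the intermembrane space with a twin CX9C fold, linked to the MICOS complex that shapes cristae, and mutations in it cause motor neuron and muscle disease. Matrix calcium, pyruvate supply and cristae shape all bear on the rate of respiration.

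The genes were on the authors' list because of the same comparison that is described below. No gene in the authors' deposited table had a log2 fold change nearer to 0 than 1 in size, or an adjusted p-value above 0.05. In the authors' deposited table MCU had a log2 fold change of -1.60, CHCHD10 of -1.30 and MPC1 of -1.07, so MPC1 sat closest to the edge of the list. The levels of these genes are therefore a description, with no test. The authors' deposited table gave 953 genes as lower after knockdown, with a median log2 fold change of -1.70, and by this value MCU ranked 507, CHCHD10 665 and MPC1 863 from the strongest fall. Each of the 3 fell less than that median gene.

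The labelled target was low in the knockdown. RNF5 was at 95.40, 81.35 and 88.44 in the RNF5_KD libraries and at 1595, 1649 and 1248 in the Ctrl libraries, which left 5.90% of the control mean. Values are a normalized abundance whose scale is not given, so levels are compared between libraries of 1 gene and not between genes, and the depth of the libraries is unknown. Among 598 genes with a mean of at least 5, Ctrl library 3 had the smallest control value in 428 and RNF5_KD library 1 the smallest knockdown value in 333. Of 12 plasma cell markers, 1 was in the table, SDC1 (CD138), at 35.5 ± 1.16 in RNF5_KD and 12.1 ± 2.66 in Ctrl (SD, n = 3 each). No T and NK cell, myeloid, or erythroid and platelet marker was in the table, and a selected table cannot show whether they were present. Of 8 fibroblast markers 1 was in the table, COL1A1, at 0.217 ± 0.197 in RNF5_KD and 0.593 ± 0.125 in Ctrl. Of 8 epithelial and packaging cell markers 1 was in the table, CLDN4, at 1.36 ± 0.104 in RNF5_KD and 2.70 ± 0.735 in Ctrl. The part of any such cells in the values below was not tested.

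The starts of the 3 genes are shown to let their promoter letters be compared. All 3 were lower in a list that the authors selected on this comparison, and shared control was not tested. The files hold no coordinates, and the positions here are those of GRCh38 and not of the hg19 build that the submitters' processing notes name. In GENCODE release 29, MCU (ENSG00000156026) lies on chromosome 10 from 72692131 to 72887694 on the plus strand. MPC1 (ENSG00000060762) lies on chromosome 6 from 166364919 to 166383013 on the minus strand. CHCHD10 (ENSG00000250479) lies on chromosome 22 from 23765834 to 23768443 on the minus strand. They span 195.6 kb, 18.1 kb and 2.61 kb, and MCU has 11 annotated transcripts, MPC1 7 and CHCHD10 5. The sequences come from RefSeq (GRCh38.p14), which had windows of 250 bases before to 50 after a start for all 3 genes. For MCU and MPC1 the stretch outside annotated exons is printed, and for CHCHD10, whose whole window lies in an exon of 1 GENCODE transcript, the 30 bases before the RefSeq start. Capitals mark every match to the letters searched, given below.

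MCU, chr10:72691893-72692130 (+ strand): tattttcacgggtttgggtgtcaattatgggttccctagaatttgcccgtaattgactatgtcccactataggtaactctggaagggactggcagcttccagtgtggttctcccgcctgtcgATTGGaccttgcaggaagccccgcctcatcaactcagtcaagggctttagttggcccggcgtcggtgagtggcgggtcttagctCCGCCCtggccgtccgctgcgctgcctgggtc
MPC1, chr6:166383014-166383188 (- strand): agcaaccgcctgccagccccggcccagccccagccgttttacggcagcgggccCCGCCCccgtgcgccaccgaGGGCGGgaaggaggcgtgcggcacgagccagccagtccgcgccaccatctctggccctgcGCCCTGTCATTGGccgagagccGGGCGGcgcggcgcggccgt
CHCHD10, chr22:23767973-23768002 (- strand): gtgttcctgaggccCCGCCCggggccccgc

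The letters searched, on both strands, were the CCAAT box, spelled by its name, and the GC box GGGCGG. For stress responses they were the heat shock element, GAANNTTC or in the reverse order TTCNNGAA, the antioxidant response element TGACNNNGC and the ATF4 element TGATGNAA. The GC box was in the windows of all 3 genes, with 3 matches for MPC1, 1 for MCU at its first RefSeq start and 1 for CHCHD10. It was also in 45.0% of the 35116 RefSeq windows. MPC1 had 2 CCAAT matches and MCU 1, against 34.6% of windows with any. The antioxidant element was matched once, in MPC1, starting 115 bases before the start and sharing its last base with a CCAAT match, and 13.3% of windows hold it. The heat shock letters (13.5% of windows) and the ATF4 letters (3.62%) were in none of the windows of the 3 genes. GC content of the window was 59.0% for MCU, 75.7% for MPC1 and 69.0% for CHCHD10, against a median of 58.7% over all windows. MCU has another RefSeq start further into the gene, whose window held 2 GC boxes and none of the other motifs. A match is a description of letters and not of a bound site.

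MCU, the pore of the calcium uniporter, was lower in the knockdown. Its abundance was 9.75, 9.24 and 8.56 in the RNF5_KD libraries and 21.79, 18.71 and 16.14 in the Ctrl libraries. The groups did not overlap, and the highest knockdown library was at 60.4% of the lowest control library. The mean was 9.18 ± 0.597 in RNF5_KD and 18.9 ± 2.83 in Ctrl (SD, n = 3 each), which is 48.6% of the control. On the log2(value + 1) scale used throughout, which understates low genes, the difference was -0.96 (SE 0.13). With libraries scaled to equal sums of the listed nuclear genes it was -0.52, and the groups still did not overlap. Those genes were selected on this comparison, RNF5 among them, so their sum is no neutral reference for MCU or any gene below. The control libraries spread over 1.35 times and the knockdown libraries over 1.14 times. In bulk RNA fewer cells with a transcript and less of it per cell cannot be told apart, for MCU and for each gene below.

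MPC1, the pyruvate carrier subunit, was lower by a similar measure. Its abundance was 107.68, 117.80 and 119.70 in the RNF5_KD libraries and 199.64, 193.10 and 243.17 in the Ctrl libraries. The groups did not overlap, and the highest knockdown library was at 62.0% of the lowest control library. The mean was 115 ± 6.46 in RNF5_KD and 212 ± 27.2 in Ctrl (SD, n = 3 each), 54.3% of the control and a log2 difference of -0.87 (SE 0.11). With equal sums of the listed nuclear genes that difference was -0.40, and the groups still did not overlap. MPC1 was the steadiest of the 3 genes, with a coefficient of variation of 5.62% in RNF5_KD and 12.8% in Ctrl. Its Ctrl library 3 was the highest of the controls, whereas that library was the lowest for MCU.

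CHCHD10, the twin CX9C protein of the cristae, was lower too, with the widest spread of the 3. Its abundance was 73.27, 42.68 and 58.62 in the RNF5_KD libraries and 98.27, 134.70 and 151.44 in the Ctrl libraries. The groups did not overlap, but the highest knockdown library reached 74.6% of the lowest control library, the narrowest gap of the 3 genes. The mean was 58.2 ± 15.3 in RNF5_KD and 128 ± 27.2 in Ctrl (SD, n = 3 each), 45.4% of the control and a log2 difference of -1.14 (SE 0.29). With equal sums of the listed nuclear genes that difference was -0.67, and the groups overlapped, at up to 89.7 in RNF5_KD and from 84.0 in Ctrl. The coefficient of variation was 26.3% in RNF5_KD and 21.2% in Ctrl. RNF5_KD library 1, the lowest of its group for MPC1, was the highest for CHCHD10.

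**Figure D1:**
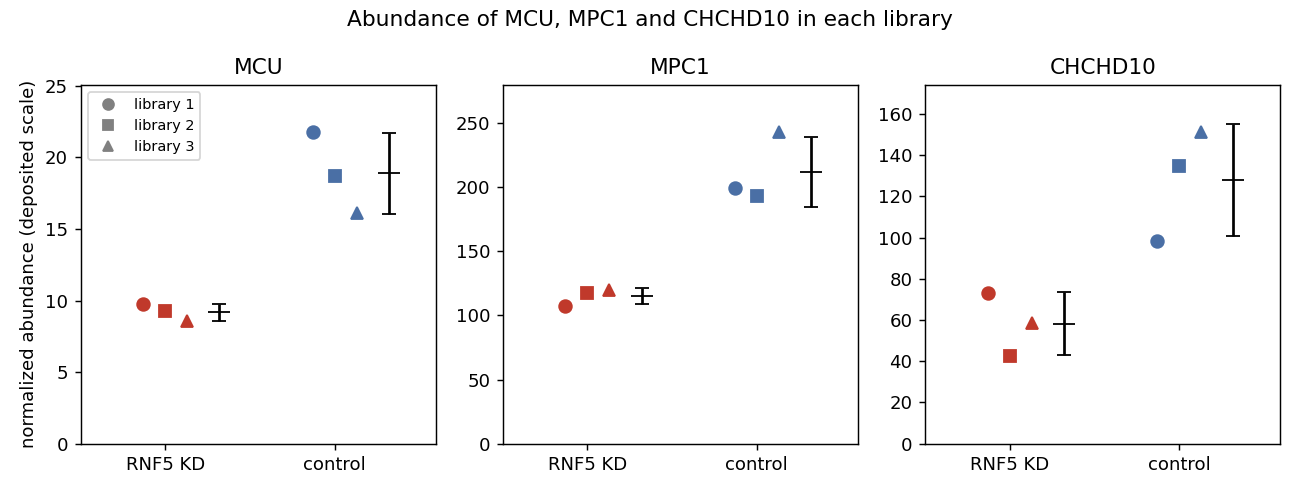
Normalized abundance (deposited scale, linear axes from 0) of MCU, MPC1 and CHCHD10, with 1 point per library and the mean ± SD of 3 libraries beside each group. In each panel the 3 RNF5_KD libraries lie below the 3 Ctrl libraries, with the narrowest gap for CHCHD10 (73.27 in the highest knockdown library, 98.27 in the lowest control library).

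On the deposited values all 3 genes thus had groups that did not overlap, lower in the knockdown. In the whole table this held for 45.5% of genes, and 97.7% of the 1290 genes abundant enough to test passed limma's test in either direction (42.0% lower). The list was picked by the authors on the same libraries, so nothing is read from the 3 genes against these shares. All 3 passed the filter on low values.

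The proportions of the 3 transcripts to each other within a library overlapped between the groups. These ratios do not depend on how libraries were scaled to each other, and their size is not a molar ratio. MPC1 over MCU was 11.0, 12.7 and 14.0 in the RNF5_KD libraries and 9.16, 10.3 and 15.1 in the Ctrl libraries. CHCHD10 over MCU was 7.51, 4.62 and 6.85 in the RNF5_KD libraries and 4.51, 7.20 and 9.38 in the Ctrl libraries. CHCHD10 over MPC1 was 0.680, 0.362 and 0.490 in the RNF5_KD libraries and 0.492, 0.698 and 0.623 in the Ctrl libraries. The knockdown mean of these ratios was 1.09, 0.900 and 0.845 times the control mean. With this spread the data do not order the 3 genes by how far they were lowered, and they do not show that the 3 fell by the same factor.

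Of the 3 genes, MCU differed most between its library values and the authors' fold change. By the means of its library values MCU had 48.6% of the control left, while the authors' deposited table gave a ratio of 33.0%. The log2 ratio of the library means was -1.04 for MCU, against -1.60 in the authors' deposited table, a difference of 0.56. Across the 431 genes whose means reached 5 in each group, the median of this difference was 0.17 (quartiles 0.11 and 0.22), and 6 genes had a larger one than MCU. With each library left out in turn, MCU's difference lay between 0.46 and 0.68, and between 6 and 21 genes exceeded it. MPC1 (0.19) and CHCHD10 (0.16) lay within the quartiles, but their place depended on single libraries. With 1 library left out the difference of MPC1 lay between 0.13 and 0.30, with 63 to 331 genes above it, and that of CHCHD10 between -0.04 and 0.34, with 33 to 395 genes above it. MCU had the lowest ratio of the 3 genes in the authors' deposited table. By the library values the order of MCU and CHCHD10 turned on single libraries, since CHCHD10 had the larger log2 difference over all 6 libraries but was at -0.93 against -0.96 for MCU without RNF5_KD library 2, and at -1.01 against -1.06 without Ctrl library 3. These differences are on the log2(value + 1) scale, which understates MCU, with its lower values, more than CHCHD10. By the log2 ratio of library means they were at -1.04 for MCU and -1.14 for CHCHD10. The sources used here do not give how the authors made the fold change, and the origin of the difference was not tested.

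**Figure D2:**
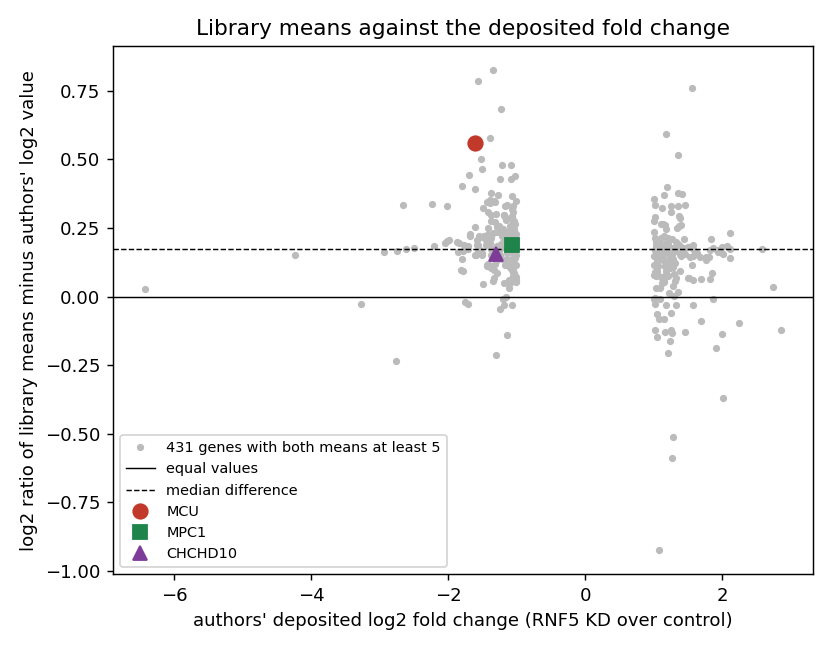
Difference between the log2 ratio of library means and the authors' deposited log2 fold change (vertical axis) against that fold change (horizontal axis), both RNF5_KD over Ctrl, for 431 genes whose means reached 5 in each group. The solid line marks equal values and the dashed line the median difference of 0.17, and MCU lies well above it at 0.56 while MPC1 (0.19) and CHCHD10 (0.16) lie close to it.

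In the 2 lists of calcium genes looked up, the genes with values other than MCU came from the list for the endoplasmic reticulum, a store from which mitochondria take up calcium. Of 21 genes of mitochondrial calcium transport MCU was the 1 in the table, and the other 20, which include its regulators MICU2 and SMDT1, have no values here. Of 25 genes of calcium at the endoplasmic reticulum and its mitochondrial contacts, 3 were in the table, of which 2 rose and 1 fell, where 55.7% of all genes tested rose and 42.0% fell. ATP2A3, a pump that returns calcium to the endoplasmic reticulum, was at 53.06, 49.03 and 55.23 in the RNF5_KD libraries and 15.21, 13.90 and 7.76 in the Ctrl libraries. It was higher in the knockdown (log2 difference 2.06, limma SE 0.23, adjusted p = 1.75e-05).

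The inositol trisphosphate receptors, which release calcium from the endoplasmic reticulum, moved in opposite directions. ITPR1 was at 1.28, 2.11 and 2.25 in the RNF5_KD libraries and 6.85, 6.27 and 3.90 in the Ctrl libraries (log2 difference -1.20, limma adjusted p = 0.000500). ITPR2 was at 4.19, 5.09 and 4.42 in the RNF5_KD libraries and 3.28, 1.96 and 1.59 in the Ctrl libraries (log2 difference 0.79, limma adjusted p = 0.00422). Neither gene's groups overlapped, ITPR1 being lower and ITPR2 higher in all 3 knockdown libraries. Of all genes in the table, 45.5% were lower without overlap, and the share higher without overlap was not counted. The authors had chosen ATP2A3, ITPR1 and ITPR2 too on this comparison, so the p-values are not independent evidence.

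Of 34 genes of pyruvate transport and use, 3 were in the table. MPC1 was lower, and GPT, an alanine aminotransferase that interconverts alanine and pyruvate, rose. GPT was at 9.46, 9.82 and 10.18 in the RNF5_KD libraries and 3.21, 3.18 and 3.61 in the Ctrl libraries (log2 difference 1.32, limma adjusted p = 5.83e-05). PDK3, a kinase that inhibits pyruvate dehydrogenase, was too low to test, at 0.987 ± 0.111 in RNF5_KD and 0.430 ± 0.105 in Ctrl. The authors had chosen GPT on this comparison as well, so its p-value is not independent evidence. MPC2, the partner of MPC1, and the pyruvate dehydrogenase subunits have no values here.

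Of 34 genes of cristae and inner membrane organization, CHCHD10 was the 1 in the table, and its close relative CHCHD2 and the MICOS subunits have no values here. In the list of 25 twin CX9C proteins, which share the fold of CHCHD10, 3 were in the table, CHCHD10 included, and all 3 were lower, where 42.0% of all genes tested fell. The authors had selected these 3 on the same comparison, and nothing is read from the count about the family. The other 2 serve the assembly of cytochrome c oxidase. COX17, its copper chaperone, was at 158.37, 133.32 and 139.20 in the RNF5_KD libraries and 217.44, 228.89 and 449.50 in the Ctrl libraries (log2 difference -0.97, limma adjusted p = 0.00242). COA6 was at 17.07, 16.50 and 14.77 in the RNF5_KD libraries and 30.26, 25.66 and 47.96 in the Ctrl libraries (log2 difference -1.01, limma adjusted p = 0.00116). With libraries scaled to equal sums of the listed nuclear genes, COA6 was at -0.56 (limma adjusted p = 0.0465, range over alternatives 0.000180 to 0.0465). Ctrl library 3 was the highest control for COX17, COA6, CHCHD10 and MPC1. Without it the log2 difference of COX17 was -0.64 and that of COA6 was -0.76. With the same scaling COX17 did not pass (limma adjusted p = 0.1004, log2 difference -0.50, range of adjusted p over alternatives 7.08e-05 to 0.1004). For COA6 and COX17 the lowest value of the range came with replicate number as a block, and these numbers did not pair the libraries.

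Of 53 genes of the SLC25 family of inner membrane carriers and its relatives, 4 were in the table, and the 3 that could be tested rose, where 55.7% of all genes tested did. SLC25A20, which brings acylcarnitines in for fatty acid oxidation, was at 98.69, 106.24 and 105.46 in the RNF5_KD libraries and 43.38, 43.42 and 35.49 in the Ctrl libraries (log2 difference 1.33, limma adjusted p = 2.75e-05). SLC25A45 rose by a log2 difference of 1.54 (limma adjusted p = 2.22e-05) and SLC25A53 by 0.77 (limma adjusted p = 0.00466). These 3 carriers were on the authors' list through this same comparison, so their p-values are not independent evidence. SLC25A18, a glutamate carrier, was too low to test, at 0.0400 ± 0.0173 in RNF5_KD and 0.317 ± 0.101 in Ctrl. Over the 6 lists, 183 genes were looked for and 14 were in the table.

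**Figure D3:**
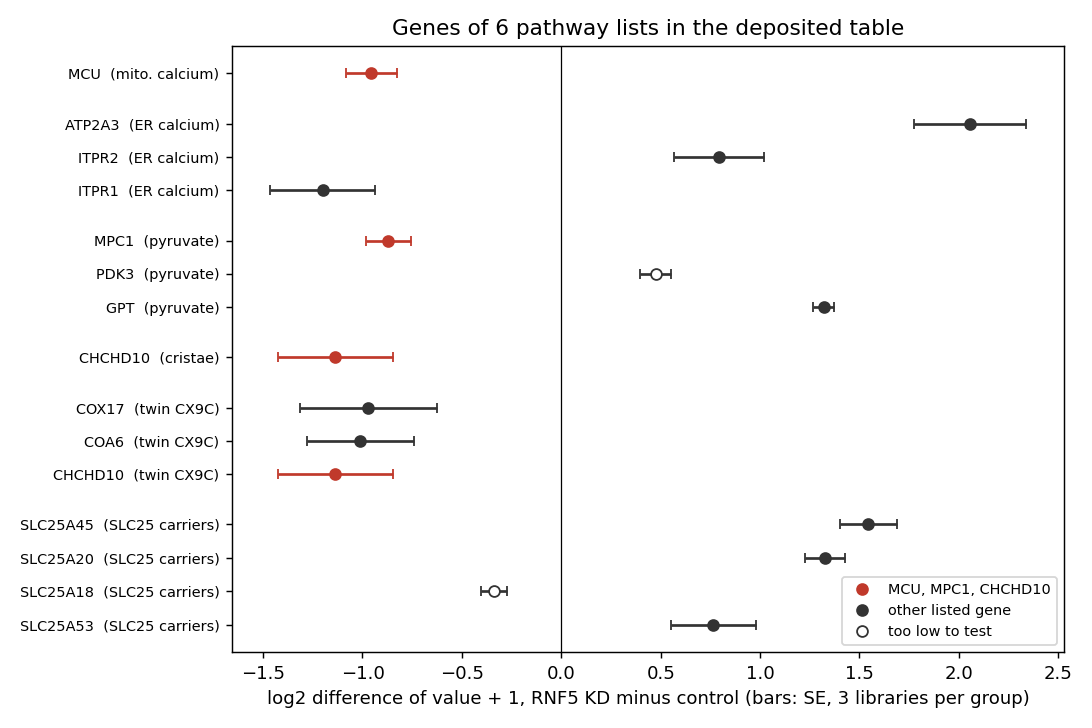
Log2 difference of value + 1, RNF5_KD minus Ctrl, with its standard error over 3 libraries per group, for each gene of the 6 lists that the table holds (CHCHD10 is in 2 lists). Red marks MCU, MPC1 and CHCHD10, and open points mark genes too low to test. The 3 twin CX9C genes lie left of 0 while SLC25A45, SLC25A20, GPT and ATP2A3 lie beyond 1 on the right.

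CHCHD10 also has neighbours in the table, which MCU and MPC1 do not. Within 500 kb in GENCODE release 29, CHCHD10 has 59 other genes, of which 2 were in the table, against 0 of 45 for MCU and 0 of 22 for MPC1. MMP11, a matrix metalloproteinase gene, lies head to head with CHCHD10 on the other strand, and their spans share 218 bases. The shared bases lie before the RefSeq start of CHCHD10 used above. MMP11 rose, at 5.30, 4.50 and 5.77 in the RNF5_KD libraries and 1.83, 1.41 and 1.16 in the Ctrl libraries (log2 difference 1.33, limma adjusted p = 7.75e-05). VPREB3, whose protein takes part in assembly of the pre-B cell receptor, lies 11.4 kb away on the strand of CHCHD10. It was at 0.54, 0.19 and 0.80 in the RNF5_KD libraries and 6.66, 5.47 and 5.77 in the Ctrl libraries. All 3 knockdown libraries were below all controls, but VPREB3 reached 1, the value needed in 3 libraries for a test, in the Ctrl libraries alone, so it had to differ to be tested and no test is given. The sources used here do not give whether reads were counted by strand, so in the shared bases reads of CHCHD10 and MMP11 cannot be told apart. Both neighbours were named after their values were seen. The authors had also selected both on this comparison, so the p-value of MMP11 is not independent evidence.

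**Figure D4:**
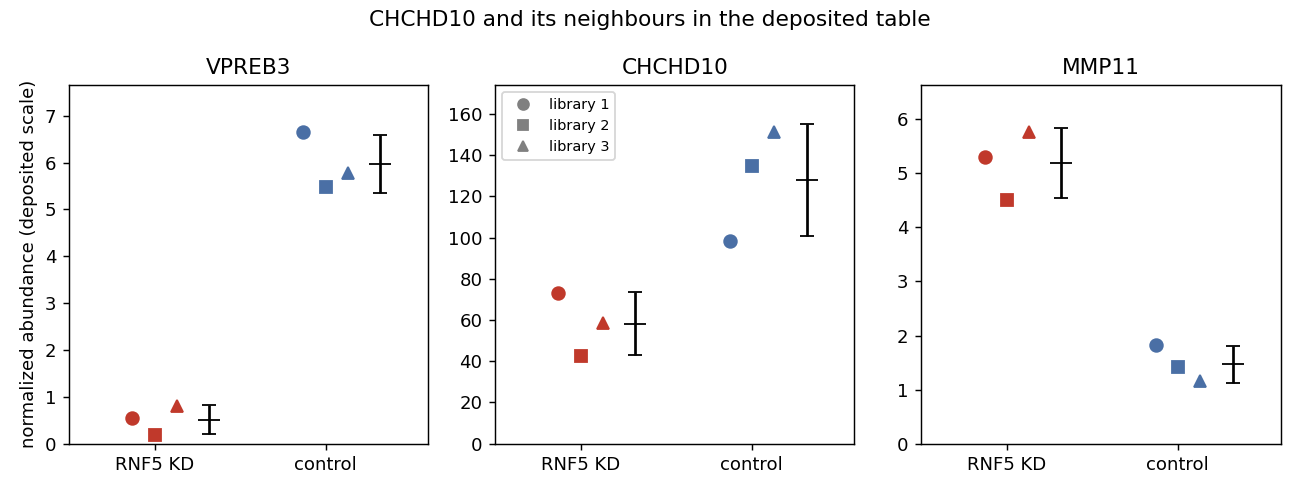
Normalized abundance (deposited scale, linear axes from 0) of VPREB3, CHCHD10 and MMP11, neighbours on chromosome 22, with 1 point per library and the mean ± SD of 3 libraries beside each group. In VPREB3 and CHCHD10 the RNF5_KD libraries lie below the Ctrl libraries, and in MMP11 they lie above (4.50 to 5.77, against 1.16 to 1.83).

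The profiles most like each gene were sought among 532 named genes with a mean of at least 5, by the root mean square difference of log2(value + 1) over the 6 libraries, each profile set against its own control mean. For MCU the nearest 3 were CFDP1 (0.066), DMGDH (0.070) and RNF149 (0.077). DMGDH, an enzyme of choline breakdown in the mitochondrial matrix, was at 9.40 ± 0.339 in RNF5_KD and 19.02 ± 2.38 in Ctrl. For MPC1 they were NSMCE2 (0.061), SNRPA1 (0.081), CKS1B (0.087) and PRDX1 (0.094). PRDX1, a peroxiredoxin that removes hydrogen peroxide, was at 60.6 ± 4.57 in RNF5_KD and 111 ± 15.2 in Ctrl.

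For CHCHD10 the nearest profiles were farther away, namely NDUFAF2 (0.19), GADD45A (0.20), UFSP1 (0.21) and SAT1 (0.21). Scatter between the libraries of a group enters this distance, and it was wider for CHCHD10. Its log2 SD pooled over both groups was 0.35, against 0.16 for MCU and 0.14 for MPC1. NDUFAF2, an assembly factor of respiratory complex I, was at 20.4 ± 3.96 in RNF5_KD and 47.0 ± 9.94 in Ctrl. The 3 genes were not each other's nearest. MPC1 lay at 0.24 from MCU, and 136 of the 532 genes were closer to MCU than that. CHCHD10 lay at 0.39 from MCU and at 0.35 from MPC1. All these genes share the same 6 libraries, and likeness over so few is a description.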

How the data were processed

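RNA of LP-1 cells was sequenced in 3 RNF5_KD and 3 Ctrl libraries. The tool Bowtie 0.12.2 and the build hg19 are named, per the submitters' processing notes, with no step given. The deposited table holds 1877 genes that the authors had selected. Its library values are a normalized signal deposited by the authors on an unnamed scale, so depth is unknown. The fold ratio deposited by the authors is the knockdown over the control, with its log2 value. The authors also deposited a p-value and its adjusted form, and the sources used here do not give their test. Group labels came from the sample titles, and each column was matched to a sample by name.

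Genes that reached a value of 1 in at least 3 libraries (1290, leaving out 587) were fitted with limma 3.58.1 in R 4.3.3 with a variance trend on log2(value + 1), group as the single term and Benjamini-Hochberg adjustment over all tested genes; 0.05 was the threshold. The limma step was tested on simulated data in which most genes did not change. This selected table differs from that setting, so the simulation does not give the error rate here. No 2 libraries were identical. Gene positions came from GENCODE release 29 by gene ID and promoter windows from RefSeq by symbol.

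The 3 genes, the lists and the tests were chosen with earlier results of these data known. The genes named were the 3, RNF5, every gene of 6 pathway lists in the table, and the 4 nearest profiles of each among named genes with a mean of at least 5, of which 1 profile is not reported here. Alternatives were pseudocounts of 0.1 and 5, no filter, no variance trend, 2 scalings, a replicate block and each library left out.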

Additional observations from a re-analysis of the deposited data

How the results depend on the processing

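MCU, MPC1 and CHCHD10 stayed lower in the knockdown under all 11 alternatives tried for each. Since their groups did not overlap, leaving a library out or another pseudocount could not turn this direction. Neither could the replicate block or scaling the knockdown down, so only the equal sums below could have turned it. With libraries scaled to equal sums of the listed nuclear genes, which moved the tested genes by a median log2 of 0.37, the log2 differences were -0.52 for MCU, -0.40 for MPC1 and -0.67 for CHCHD10. Relative to that shift they were -0.89, -0.77 and -1.04, but taking the shift off largely undoes the scaling and is no further check. The summed genes were selected on this comparison, RNF5 included, so this scaling cannot separate library size from the change itself. With knockdown libraries scaled down by their median difference from the authors' fold changes (a shift of -0.14), MPC1 was at -1.04, and with a pseudocount of 5 MCU was at -0.75. With 1 library left out they lay between -1.06 and -0.85 for MCU, -0.93 and -0.77 for MPC1, and -1.32 and -0.93 for CHCHD10. Genes called lower numbered 542, but 361 with equal nuclear sums and 882 without the filter, where more genes were tested (1877). Genes called higher were 57.0% of calls and 67.9% with equal nuclear sums. With 1 library left out, called genes numbered 1076 to 1161. Fewer genes were then tested (1129 to 1188), and 95.2% to 97.7% of them were called. The same replicate numbers did not pair the libraries (correlations of -0.16, -0.071 and -0.082 across 1290 genes). With the number as a replicate block limma called 1272 genes in place of 1260, 721 higher and 551 lower. The log2 differences of the 3 genes were at -0.96, -0.87 and -1.14, which a block with 1 library of each group per number cannot change. Of 153 values of 12 other genes, 152 kept direction and call, the exception being COX17, and VPREB3 fell under the filter whenever a Ctrl library was left out. The authors had selected these genes on this comparison, RNF5 was the target, and VPREB3 had to differ to be tested. Nothing is therefore read from that count about how stable the calls are. A pseudocount of 5 brought the log2 differences of low genes nearer 0, to 0.83 for GPT, -0.63 for ITPR1, 0.40 for ITPR2, 0.66 for MMP11 and 0.40 for SLC25A53. Of the 4 nearest profiles, the pseudocount of 5 kept 2 for MCU, 4 for MPC1 and 1 for CHCHD10, and the 3 other settings tried kept at least 3. The cause of these moves was not tested. The selected table and unknown depth limit every value: 3 libraries a group cannot separate the falls of the 3 genes, and genes outside the table cannot be called stable.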
